A study of Sus scrofa with 29 samples.

Results

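CHI3L1 and the galectins are secreted proteins that bind sugars, and their transcripts were measured here in the inner lining of 2 arteries of exercise-trained and sedentary pigs. The set was made up of every probe set annotated with the symbol CHI3L1, LGALS1, LGALS3, LGALS4, LGALS8 or LGALS9. Each of these 6 genes had 1 probe set, so 6 of the 23999 probe sets tested, and 6 of the 6765 genes that a single symbol names, were members. CHI3L1 and LGALS3 were selected on their higher levels after training on these same arrays. Their training differences are therefore given as a description, with no test. The other 4 galectins came in by family name, and the artery comparison played no part in the choice.

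The groups were exercised brachial (7 pigs), sedentary brachial (7 pigs), exercised internal mammary (8 pigs) and sedentary internal mammary (7 pigs). Healthy pigs in the exercised group ran on a treadmill for 16 to 20 weeks and were sampled about 24 h after their last bout, while sedentary pigs were kept in their enclosures. The brachial artery supplies the foreleg and the internal mammary artery the chest wall. Both arteries were sampled in 14 of 15 pigs, and exercised pig 12_2 contributed its internal mammary artery only. The labels used here give no genotype, strain, sex or age, and each array held RNA from a single pig and artery.

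CHI3L1, also called YKL-40 and known in pigs as gp38k, is a chitinase-like protein that binds chitin-type sugars but has lost the enzyme activity. It is made by macrophages, neutrophils, chondrocytes and cultured vascular smooth muscle cells, and inflammatory cytokines such as IL-6 raise it. Galectins bind galactose-containing sugars on glycoproteins, and branched N-glycans offer them more binding sites. Galectin-3, the product of LGALS3, can form lattices at the cell surface, is abundant in macrophages and also acts inside cells. Galectin-1 (LGALS1) is a small dimeric galectin that is plentiful in smooth muscle and stroma. Galectin-8 (LGALS8) marks damaged vesicles for autophagy, galectin-9 (LGALS9) is a tandem-repeat galectin induced by interferon, and galectin-4 (LGALS4) is known mainly from the gut epithelium.

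All levels are log2 probe set intensities, on which 1 unit is a doubling. Levels are compared only within a probe set. Changes are exercised minus sedentary, or brachial minus internal mammary, with their standard error (SE) from a limma model fitted to all 23999 probe sets with the pig as a random block. A change passed the test when its p-value, adjusted over all these probe sets by the Benjamini-Hochberg method, was under 0.05. The arrays had medians between 7.13 and 7.28. The endothelial markers PECAM1 and CDH5 were bright on every array, between 13.56 and 14.15 for PECAM1 and between 11.87 and 12.73 for CDH5. These were picked from 9 measured endothelial markers after their values were seen. KDR, a VEGF receptor, read between 3.58 and 4.46, and VWF, the von Willebrand factor, between 6.04 and 12.06, with means of 6.94 in exercised and 9.09 in sedentary internal mammary arteries. Smooth muscle markers were bright too, with ACTA2 between 13.24 and 14.34, so smooth muscle RNA was present in the scrapes. In such mixed scrapes, fewer cells of a type and less RNA per cell cannot be told apart.

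CHI3L1 was higher in exercised than in sedentary pigs in both arteries, and its spread among exercised pigs was wide. In exercised brachial arteries it read 8.99 at the lowest, 10.43 at the median and 12.14 at the highest, against 7.12, 8.00 and 9.91 in sedentary brachial arteries. In exercised internal mammary arteries it read 7.28 at the lowest, 9.83 at the median and 12.67 at the highest, against 6.81, 7.15 and 9.46 in sedentary ones. The groups overlapped in both arteries. In the brachial artery 4 of 7 exercised pigs lay above the highest sedentary pig, and in the internal mammary artery 4 of 8 did.

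CHI3L1 averaged 10.40 ± 1.18 in exercised and 8.17 ± 1.00 in sedentary brachial arteries (SD, n = 7 each), a change of 2.20 ± 0.62 (SE), or 4.61-fold. Its internal mammary level averaged 10.02 ± 1.81 in exercised (SD, n = 8) and 7.56 ± 0.94 in sedentary pigs (SD, n = 7), a change of 2.47 ± 0.60, or 5.53-fold. Averaged over the arteries the change was 2.34 ± 0.48, or 5.05-fold. By size this ranked 2 from the highest of the 23999 probe sets in each artery and in their average, which is what the gene was chosen for. The change in the brachial artery differed from that in the internal mammary artery by -0.26 ± 0.75, so its SE was larger than the difference.

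LGALS3 was also higher in exercised pigs, with a smaller log2 change and a smaller SD in every group than CHI3L1. In exercised brachial arteries it read 11.66 at the lowest, 11.75 at the median and 12.14 at the highest, against 10.61, 11.09 and 11.44 in sedentary ones. These groups did not overlap. In exercised internal mammary arteries it read 10.56 at the lowest, 11.43 at the median and 11.90 at the highest, against 9.81, 10.46 and 11.00 in sedentary ones. Here 6 of 8 exercised pigs lay above the highest sedentary pig. The others were pig 12_2, which read 10.56, and pig 14_3, which read 10.73.

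LGALS3 averaged 11.84 ± 0.17 in exercised and 11.07 ± 0.29 in sedentary brachial arteries (SD, n = 7 each), a change of 0.74 ± 0.18 (SE), or 1.67-fold. Internal mammary LGALS3 averaged 11.33 ± 0.47 in exercised (SD, n = 8) and 10.48 ± 0.42 in sedentary pigs (SD, n = 7), a change of 0.85 ± 0.17, or 1.80-fold. The average over the arteries was 0.80 ± 0.14, or 1.74-fold. Over all probe sets, the exercised and sedentary groups failed to overlap for 0.604% in the brachial artery and 0.288% in the internal mammary artery. Nothing is read from that share for LGALS3, since the training contrast chose it.

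**Figure D1:**
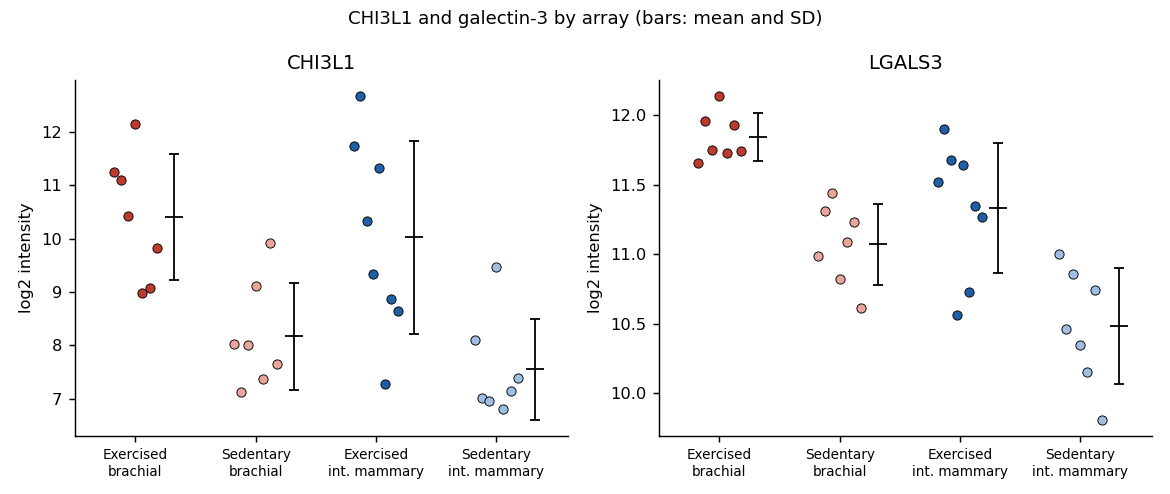
Log2 intensity of CHI3L1 (left) and LGALS3 (right) in each group, with 1 point per pig; the bar beside each group is the mean and SD. CHI3L1 groups overlap in both arteries, while the LGALS3 values of exercised brachial arteries (11.66 to 12.14) all lie above those of sedentary brachial arteries (10.61 to 11.44).

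The order of mean levels was the same for both genes: exercised brachial, exercised internal mammary, sedentary brachial and sedentary internal mammary. Neighbours in that order overlapped. For LGALS3 the exercised internal mammary range of 10.56 to 11.90 contained the whole sedentary brachial range. For CHI3L1 the exercised internal mammary range of 7.28 to 12.67 contained that of exercised brachial arteries and nearly all of the sedentary brachial range.

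Within exercised pigs CHI3L1 varied between dates. The labels date each sample, and days were counted from the first date. Among exercised internal mammary arteries, the 4 pigs with earlier dates averaged 11.02 and the 4 with later dates 9.03. Among exercised brachial arteries the 3 earlier pigs averaged 10.93 and the 4 later pigs 10.01, although the highest value, 12.14 in pig 12_5, was a later one. Over the exercised internal mammary arteries CHI3L1 was lower on later days (Pearson r = -0.762, exact permutation p = 0.0332, two-sided, adjusted p = 0.398 over 24 such tests, n = 8; Spearman rho = -0.833, exact p = 0.0154, adjusted p = 0.261), and r was -0.707 without the 2 pigs farthest from the median day. None of the 24 correlations with the day passed after adjustment.

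Fitted in the 8 earliest pigs alone, the average training change of CHI3L1 was 2.95 ± 0.52, and in the 7 latest pigs alone it was 1.80 ± 0.69. For LGALS3 the same fits gave 0.67 ± 0.19 and 0.96 ± 0.18. Both genes were higher in exercised pigs in each period, but the periods are parts of the arrays on which the genes were chosen. These values are a description and no test of the rise. With the day as a covariate over all pigs the changes were 2.22 ± 0.45 for CHI3L1 and 0.77 ± 0.13 for LGALS3.

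The other 4 galectins did not pass in any training comparison, 0 of 4 in each artery and in the average of the arteries. Of all 23999 probe sets, training calls were made for 1.63% in brachial arteries, 0.596% in internal mammary arteries and 4.68% in the average, of which 2.88% were higher and 1.8% lower in exercised pigs. No probe set passed the test of a difference between the arteries' training changes (0%), where 1035 had an unadjusted p under 0.05. A count of 0 of 4 does not stand apart from these shares.

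LGALS1 read between 11.63 and 13.03 in exercised and between 11.72 and 13.36 in sedentary brachial arteries, with medians of 12.51 and 12.55. Internal mammary levels lay between 11.47 and 12.96 in exercised and between 11.93 and 13.24 in sedentary pigs, with medians of 12.01 and 12.12. The groups overlapped in both arteries, with 1 of 7 exercised pigs below the lowest sedentary pig in the brachial artery, 3 of 8 in the internal mammary artery, and 0 above the highest sedentary pig in either. The average change was -0.26 ± 0.24 with a 95% interval of -0.75 to 0.23 (adjusted p = 0.622 in limma).

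LGALS9 read between 7.63 and 9.35 in exercised and between 7.39 and 8.43 in sedentary brachial arteries, with medians of 7.97 and 8.04. For internal mammary arteries the levels lay between 7.09 and 9.89 in exercised and between 7.18 and 8.40 in sedentary pigs, with medians of 7.91 and 7.98. In both arteries the highest value belonged to the same exercised pig, 15_4. The average change of LGALS9 was 0.19 ± 0.22, with a 95% interval of -0.25 to 0.64 (limma, adjusted p = 0.699), and without pig 15_4 it was -0.036 ± 0.15.

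LGALS8 averaged 6.65 ± 0.26 in exercised and 6.68 ± 0.34 in sedentary brachial arteries (SD, n = 7 each). In the internal mammary artery it averaged 6.43 ± 0.16 in exercised (SD, n = 8) and 6.38 ± 0.22 in sedentary pigs (SD, n = 7). Its average training change was 0.0080 ± 0.11, with a 95% interval of -0.21 to 0.22 (limma, adjusted p = 0.978). The exercised and sedentary means of LGALS8 thus lay within 1 SD of each other in both arteries.

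LGALS4 read between 5.03 and 5.86 over all arrays and was lost when the 33.3% of probe sets with the lowest means were left out. It averaged 5.50 ± 0.21 in exercised and 5.35 ± 0.18 in sedentary brachial arteries (SD, n = 7 each), a change of 0.15 ± 0.11 (limma, adjusted p = 0.579). In the internal mammary artery it averaged 5.21 ± 0.12 in exercised (SD, n = 8) and 5.33 ± 0.25 in sedentary pigs (SD, n = 7), a change of -0.11 ± 0.11 (limma, adjusted p = 0.744). The changes in the 2 arteries had opposite signs, and their difference of 0.26 ± 0.13 had an unadjusted p of 0.0629 and an adjusted p of 1 in limma.

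**Figure D2:**
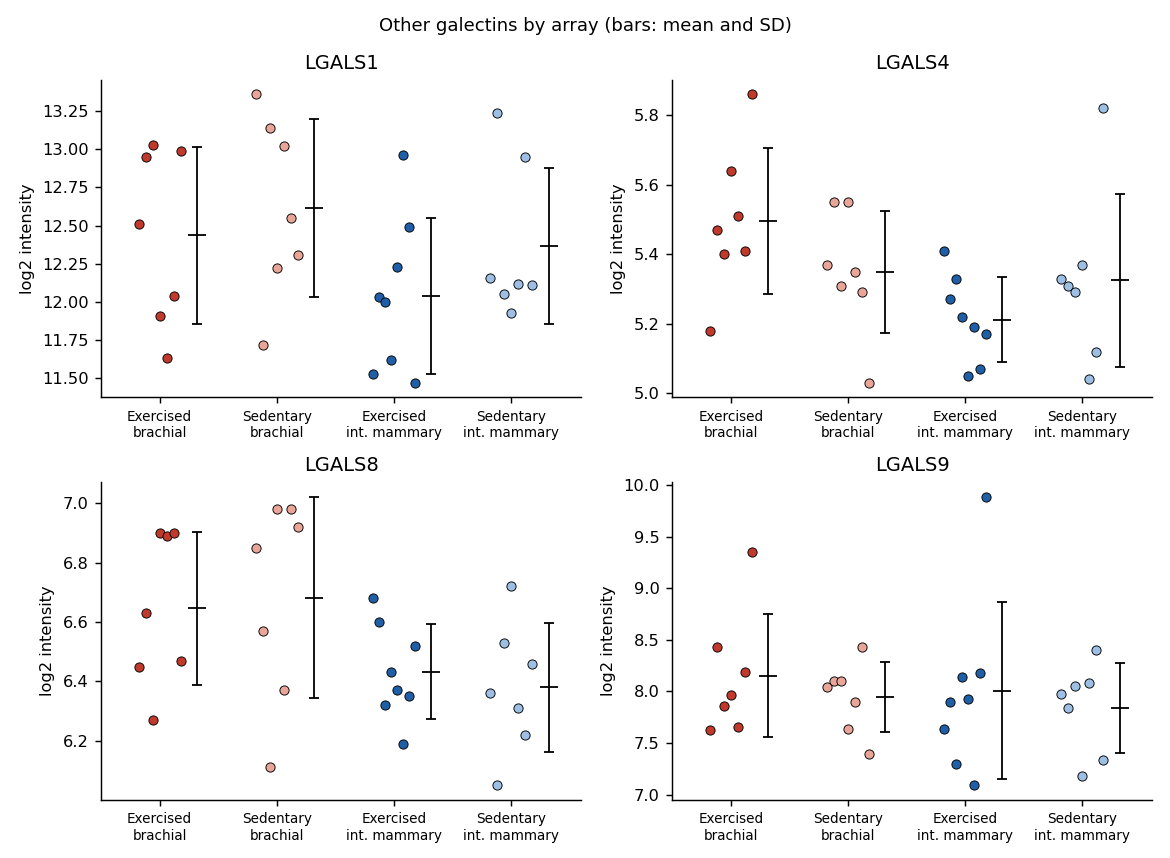
Log2 intensity of LGALS1, LGALS4, LGALS8 and LGALS9 in each group, with 1 point per pig; the bar beside each group is the mean and SD. Exercised and sedentary groups overlap in every panel, and a single exercised pig stands apart in LGALS9 (9.35 brachial, 9.89 internal mammary).

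Between the arteries, LGALS3 and LGALS8 were higher in the brachial artery, 2 of the 6 members. Brachial and internal mammary arteries differed widely in this series, since 54.3% of all probe sets passed in the average over training groups, 31.8% higher and 22.5% lower in the brachial artery. In exercised pigs alone 41.2% passed and in sedentary pigs alone 34.8%. Both members that passed were higher in the brachial artery, and 2 of 6 is close to the share called higher over all probe sets, so the count is no result about the members.

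LGALS3 was higher in the brachial than in the internal mammary artery of the same pig in 13 of 14 pigs. The difference within a pig ran from 0.061 to 0.99 in exercised pigs and from -0.0062 to 0.94 in sedentary pigs. In the fit it was 0.48 ± 0.15 in exercised pigs (limma, adjusted p = 0.0116) and 0.59 ± 0.16 in sedentary pigs (adjusted p = 0.00419). Averaged over both, it was 0.54 ± 0.11, or 1.45-fold (limma, adjusted p = 0.000145). The median over all probe sets was 0.031. In the 8 earliest pigs alone the average difference was 0.40 ± 0.17 (limma, adjusted p = 0.0715) and in the 7 latest pigs 0.69 ± 0.13 (adjusted p = 0.00158). The difference in exercised pigs no longer passed once macrophage markers were a covariate, at 0.34 ± 0.20 (limma, adjusted p = 0.205).

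LGALS8 was higher in the brachial artery in 10 of 14 pigs, by 0.26 ± 0.08 or 1.20-fold on average (limma, adjusted p = 0.00905). It was 0.21 ± 0.11 in exercised pigs (adjusted p = 0.138) and 0.30 ± 0.12 in sedentary pigs (adjusted p = 0.0446). In the 8 earliest pigs alone the average difference was 0.075 ± 0.12 (limma, adjusted p = 0.657). The call in sedentary pigs was lost with the pig as a fixed block (adjusted p = 0.0914). Group means of LGALS8 (6.38 to 6.68) lay below all array medians.

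LGALS4 was higher in the brachial artery in 12 of 14 pigs, by 0.15 ± 0.07, which missed the threshold (limma, adjusted p = 0.0523). In exercised pigs the difference was 0.28 ± 0.09 (limma, adjusted p = 0.0161) and in sedentary pigs 0.025 ± 0.10 (adjusted p = 0.869). The call in exercised pigs was lost with the pig as a fixed block (adjusted p = 0.074) and without pig 12_5 or pig 15_4 (adjusted p = 0.0687 and 0.0778). The test of the difference between exercised and sedentary pigs is the one given above, which did not pass. Sedentary pig 17_1 read 5.82 in its internal mammary artery, above all other sedentary pigs, and without it the average difference of LGALS4 was 0.22 ± 0.05 (limma, adjusted p = 0.00131).

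CHI3L1 differed by 0.48 ± 0.37 between the arteries, with a 95% interval of -0.28 to 1.25 (limma, adjusted p = 0.283), and was higher in the brachial artery in 10 of 14 pigs. The difference within a pig ran from -1.57 to 1.70 in exercised and from -0.36 to 2.77 in sedentary pigs. LGALS1 differed by 0.32 ± 0.19 (limma, adjusted p = 0.153) and LGALS9 by 0.13 ± 0.17 (adjusted p = 0.546).

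Pig-to-pig differences in CHI3L1 and LGALS9 tended to run alike in both arteries of a pig. The level in the brachial artery was compared with that in the internal mammary artery of the same pig, within each training group, in 12 tests over the 6 genes. None passed after adjustment. LGALS9 came closest, with r = 0.939 in exercised pigs (exact permutation p = 0.00794, two-sided, adjusted p = 0.0524; Spearman rho = 0.786, exact p = 0.048, adjusted p = 0.192, n = 7) and r = 0.783 without the 2 pigs farthest from the median. In sedentary pigs LGALS9 had r = 0.89 (exact permutation p = 0.00873, adjusted p = 0.0524; rho = 0.643, exact p = 0.139, adjusted p = 0.333, n = 7) and r = 0.694 without 2 pigs.

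CHI3L1 had r = 0.863 in exercised pigs (exact permutation p = 0.0194, adjusted p = 0.0778; Spearman rho = 0.821, exact p = 0.0341, adjusted p = 0.192, n = 7) and r = 0.91 without 2 pigs. In sedentary pigs its r was 0.414 (exact permutation p = 0.339, adjusted p = 0.394; rho = 0.571, exact p = 0.2, adjusted p = 0.343, n = 7), where pig 15_1 read 9.91 in its brachial and 7.15 in its internal mammary artery. LGALS1 ran the other way in exercised pigs, with r = -0.77 (exact permutation p = 0.0482, adjusted p = 0.145; rho = -0.786, exact p = 0.048, adjusted p = 0.192, n = 7).

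**Figure D3:**
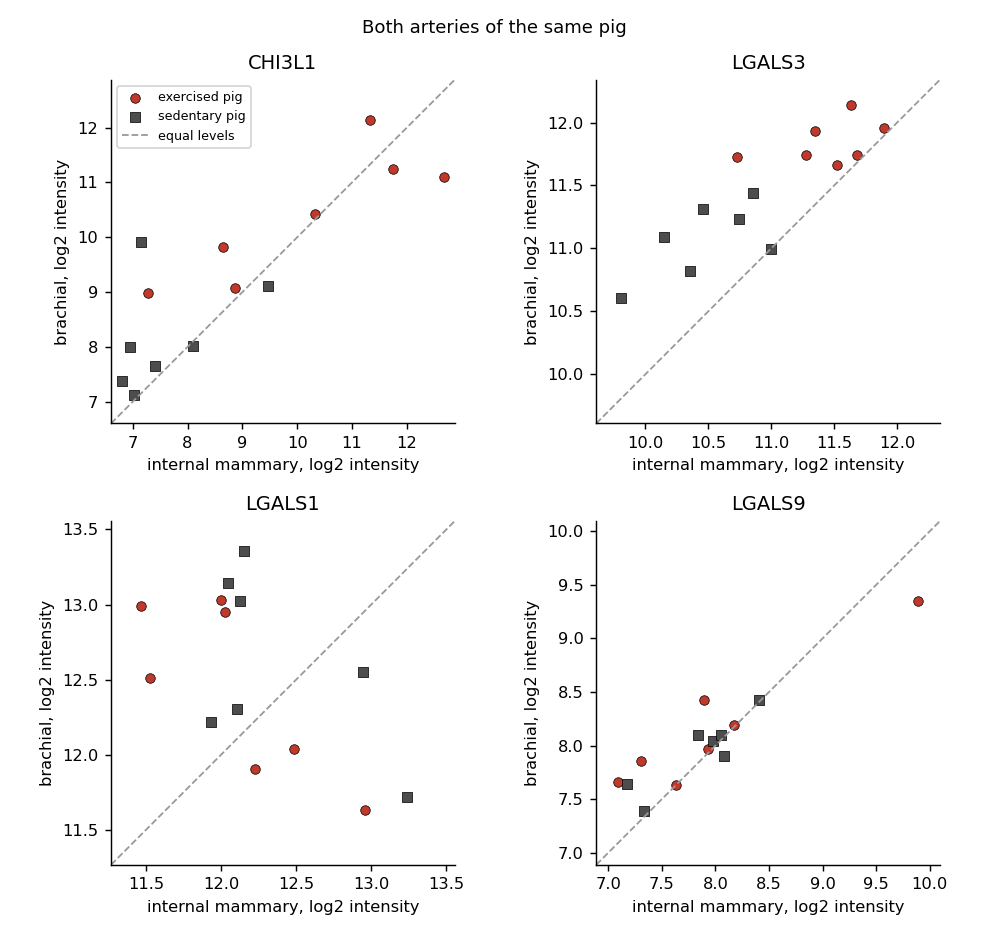
Brachial level against internal mammary level of the same pig for CHI3L1, LGALS3, LGALS1 and LGALS9, log2 intensity on both axes; the dashed line marks equal levels. For LGALS3, 13 of 14 pigs lie above the line, LGALS9 runs along it, and LGALS1 runs across it.

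LGALS1 correlated positively with the smooth muscle markers of the same array in all 4 groups, and passed in sedentary brachial arteries only. The mean of 8 measured smooth muscle markers, each centred on its own mean, ran from -0.60 to 0.91 in exercised brachial, -0.50 to 1.24 in sedentary brachial, -0.89 to 0.66 in exercised internal mammary and -0.51 to 0.79 in sedentary internal mammary arteries. LGALS1 correlated with it within each group, with r = 0.966 in exercised brachial (exact permutation p = 0.00317, adjusted p = 0.0571, n = 7), 0.978 in sedentary brachial (exact p = 0.000397, adjusted p = 0.0286, n = 7), 0.909 in exercised internal mammary (exact p = 0.00179, adjusted p = 0.0571, n = 8) and 0.961 in sedentary internal mammary arteries (exact p = 0.00714, adjusted p = 0.103, n = 7). The correlation in sedentary brachial arteries was the only one of 72 tests of a member against a macrophage, smooth muscle or endothelial marker mean that passed.

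Spearman's rho for LGALS1 was 0.964, 0.964, 0.905 and 0.714 in the same order of groups (exact permutation adjusted p = 0.1, 0.1, 0.104 and 0.453). Without the 2 arrays farthest from the median marker mean, r was 0.964 in exercised brachial and 0.968 in sedentary brachial arteries, and 0.599 in exercised internal mammary and 0.337 in sedentary internal mammary arteries. In the internal mammary artery r was thus lower without those 2 arrays in both groups, and most of all in sedentary pigs. LGALS1 also ran against the endothelial marker mean, with r of -0.91, -0.776, -0.784 and -0.17 in the same order of groups (exact permutation adjusted p = 0.0571, 0.249, 0.227 and 0.91). LGALS8 ran against the smooth muscle mean, with r of -0.861, -0.462, -0.788 and -0.772 (exact permutation adjusted p = 0.227, 0.719, 0.227 and 0.249). With the smooth muscle mean as a covariate, the artery difference of LGALS1 was -0.071 ± 0.06 (limma, adjusted p = 0.296), against 0.32 ± 0.19 without it.

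For CHI3L1 and LGALS3 no correlation with the smooth muscle mean passed. Within the 4 groups, in the order exercised brachial, sedentary brachial, exercised internal mammary and sedentary internal mammary, r was 0.0077, -0.169, -0.643 and -0.35 for CHI3L1 and -0.374, 0.198, -0.491 and 0.124 for LGALS3. With the smooth muscle mean as a covariate their average training changes were 2.20 ± 0.49 and 0.75 ± 0.15. All 8 smooth muscle markers had a negative average training change, 0 of them passing, with a median of -0.31. The part of smooth muscle cells in the changes of CHI3L1 and LGALS3 was not tested.

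Of 9 measured macrophage markers, 3 were lower in exercised than in sedentary brachial arteries: C1QC, a complement subunit, by 0.81, TYROBP, an adaptor of myeloid receptors, by 0.66, and FCER1G, an Fc receptor chain, by 0.88 on the log2 scale (limma, adjusted p = 0.0228, 0.0259 and 0.0255). The share of all probe sets that passed in that artery was 1.63%. In the internal mammary artery 0 of 9 passed, against 0.596% of all probe sets. MARCO, a scavenger receptor in the same list, had values of 0.13 (brachial) and 0.21 (internal mammary), neither passing, and its average of 0.17 ± 0.06 missed the threshold (limma, adjusted p = 0.073). The centred mean of the list ran from -0.57 to -0.10 in exercised brachial, -0.22 to 0.66 in sedentary brachial, -0.24 to 0.39 in exercised internal mammary and -0.16 to 0.55 in sedentary internal mammary arteries. Its group means were -0.35 in exercised and 0.13 in sedentary brachial arteries, and 0.096 in exercised and 0.11 in sedentary internal mammary arteries.

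With the macrophage mean as a covariate, the average training change was 2.69 ± 0.53 for CHI3L1 and 0.71 ± 0.15 for LGALS3. Within groups, r between LGALS3 and the macrophage mean was -0.623, -0.521, -0.158 and -0.0382, in the same order of groups, and for CHI3L1 it was 0.0232, 0.68, 0.343 and 0.361. None of these passed. Of the T and B cell list 4 of 7 markers were measured, and their centred mean read -0.034 ± 0.12 in exercised and -0.087 ± 0.23 in sedentary brachial arteries (SD, n = 7 each), and 0.24 ± 0.26 in exercised (n = 8) and -0.16 ± 0.25 in sedentary internal mammary arteries (n = 7). In that list CD79B, a B cell receptor chain, averaged 7.95 in exercised and 6.48 in sedentary internal mammary arteries. The T cell markers differed less there: CD3D averaged 6.88 and 6.77, CD2 5.66 and 5.53, and CD3E, lower in exercised pigs, 5.34 and 5.44. The part of macrophages, T cells and B cells in the changes of CHI3L1 and LGALS3 was not tested. The neutrophil list rested on S100A8, S100A9 and S100A12 alone, and its mean reached 4.12 on a single sedentary internal mammary array.

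**Figure D4:**
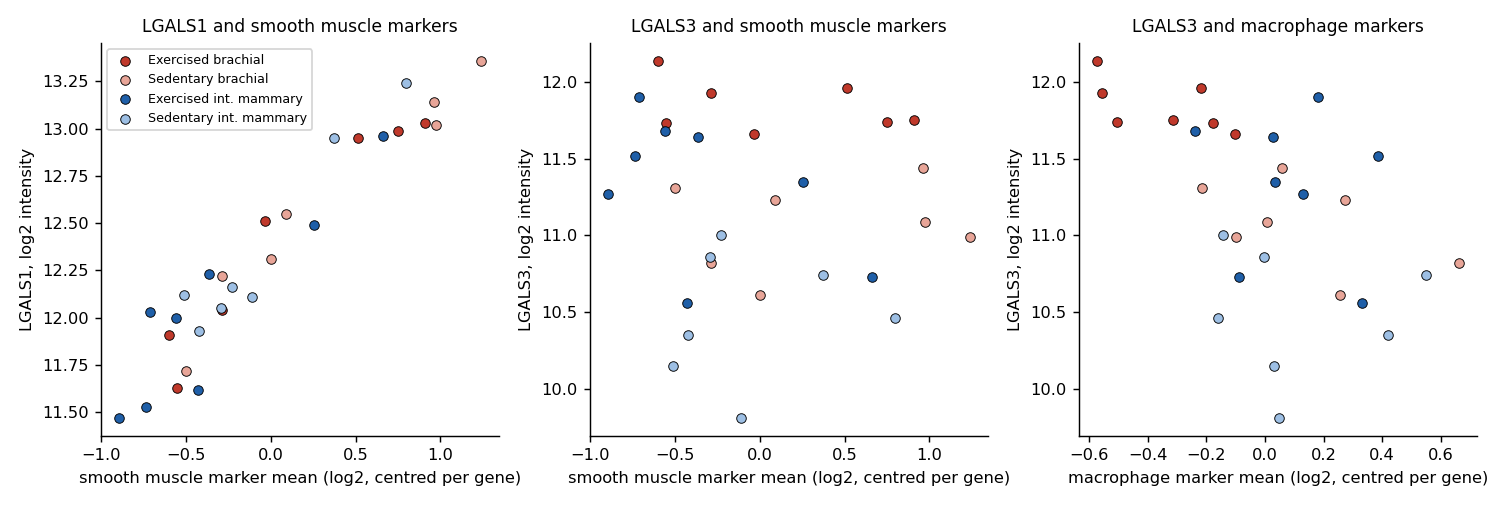
LGALS1 against the smooth muscle marker mean (left), LGALS3 against the smooth muscle marker mean (middle) and LGALS3 against the macrophage marker mean (right), with 1 point per array; the vertical axes are log2 intensity and the horizontal axes the mean of centred log2 marker levels. LGALS1 rises with the smooth muscle mean in all 4 groups (r = 0.909 to 0.978). Exercised brachial arrays have high LGALS3 beside low macrophage markers. In the internal mammary artery the macrophage group means are 0.096 (exercised) and 0.11 (sedentary).

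As a measure of RNA quality, the labelled 28S/18S ratio averaged 1.41 ± 0.17 in exercised and 1.38 ± 0.20 in sedentary brachial arteries (SD, n = 7 each), and 1.33 ± 0.08 in exercised (n = 8) and 1.19 ± 0.08 in sedentary internal mammary arteries (n = 7). With this ratio as a covariate the average training changes were 2.36 ± 0.52 for CHI3L1 and 0.85 ± 0.15 for LGALS3.

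Among exercised internal mammary arteries, pigs with more CHI3L1 tended to have more LGALS3, but the relation did not pass after adjustment. There r was 0.769 (exact permutation p = 0.0263, adjusted p = 0.105 over 4 groups; Spearman rho = 0.762, exact p = 0.0368, adjusted p = 0.147, n = 8) and 0.529 without the 2 arrays farthest from the median CHI3L1 level. It was 0.446 in exercised brachial, -0.022 in sedentary brachial and 0.0277 in sedentary internal mammary arteries, and -0.324, -0.0721 and -0.411 in the same order without the 2 farthest arrays. Pig 14_3 had the lowest CHI3L1 of the exercised pigs in both arteries, 8.99 brachial and 7.28 internal mammary. Among internal mammary arteries, that of pig 10_5 had the highest level of both genes, 12.67 for CHI3L1 and 11.90 for LGALS3.

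The genes whose pattern was most like CHI3L1, by Pearson r over the 29 arrays of 15 pigs after group means were subtracted, were SOCS1 (0.766), a feedback inhibitor of cytokine signalling, UBE2W (0.761), LOC574051 (0.758), GOT1 (0.746), C4A (0.741), a complement component, and SLA-DOA (0.738), a class II histocompatibility chain of the pig. On the values as deposited, which keep the group differences, they were TMEM42 (0.819), SLA-DOA (0.807), GGACT (0.798), HEPACAM2 (0.796), BMP1 (0.79) and C4A (0.788). C4A and SLA-DOA thus stood in both lists. Both arteries of a pig enter these values, so the arrays are not independent, and the r values are descriptions with no test.

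LGALS3 was most like MARCO (0.781), from the macrophage list, PLA2G12A (0.753), CD247 (0.697), NPC2 (0.694), a lysosomal cholesterol carrier, ACOT13 (0.691) and LOC100154081 (0.682) after subtraction of group means. On the values as deposited they were SPG21 (0.844), ELOVL6 (0.843), FKBP1B (0.842), PON2 (0.84), NID2 (0.827) and NDUFAF2 (0.824), with no gene in both lists. MARCO was higher in the brachial artery by 0.63 ± 0.04 (limma, adjusted p = 1.43e-12), while C1QC was lower there by 0.69. Group means of MARCO ran from 6.44 to 7.24, beside array medians between 7.13 and 7.28, so its probe set was not bright. The r between CHI3L1 and LGALS3 was 0.435 after subtraction and 0.708 as deposited.

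Genes related to the members by function mostly did not pass with training. The lists' training counts in the average of the arteries stand against 2.88% of all probe sets called higher and 1.8% called lower. In lists this short, so few training calls are no result about a list. In the artery comparison the lists' counts stand against 31.8% of all probe sets called higher and 22.5% called lower in the brachial artery. Among chitinase-like proteins and their receptors, 5 of 10 listed genes were measured. CHID1, a chitinase-domain protein, rose by 0.18 ± 0.05 in the average of the arteries (limma, adjusted p = 0.0461), and the other 4 did not pass. The CHID1 call was lost in 17 of 28 other settings, among them 9 of 15 fits that left out 1 pig. Another of them was an unblocked limma fit on pig means, the mean of both arteries of each pig (adjusted p = 0.16). The list's median change was 0.10, against 0.0095 over all probe sets. Between arteries, 4 of the 5 were higher in the brachial artery, against 31.8% of all probe sets: OVGP1, an oviductal chitinase-like glycoprotein, by 0.40, TMEM219, a receptor described for CHI3L1, by 0.38, CHIA, an acidic chitinase, by 0.21, and AGER, the receptor for advanced glycation end products, by 0.17. Group means of OVGP1 (5.72 to 6.17), CHIA (5.18 to 5.43) and AGER (4.53 to 4.83) lay below all array medians. With such dim probe sets the count is not read as a result about the list.

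Among inducers of CHI3L1 and their signalling genes, 13 of 15 were measured, and 1 passed with training. IL6, the cytokine interleukin-6, averaged 8.32 in exercised and 7.15 in sedentary brachial arteries, and 7.95 in exercised and 6.92 in sedentary internal mammary arteries. Its average change was 1.11 ± 0.33, or 2.16-fold (limma, adjusted p = 0.0479). This call was at the edge of the threshold, and it was lost in 12 of 15 fits that left out 1 pig. Its adjusted p-values in limma reached 0.566 over all settings and were 0.091 in the fit on pig means. IL1B, TNF, STAT3 and NFKB1 had changes of -0.030, -0.024, -0.19 and -0.010, and the list's median was -0.024. In the artery comparison NFKB1, an NF-kappa-B subunit, was higher in the brachial artery by 0.31, while IL13RA1, an IL-13 receptor chain, CEBPB and STAT6, both transcription factors, were lower there by 0.73, 0.41 and 0.37. NFKB1 was dim, with group means of 4.90 to 5.22, below all array medians.

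Of genes listed for building and capping glycans to which galectins bind, 9 of 14 were measured. MGAT4B, which adds a branch to N-glycans, rose by 0.40 ± 0.09 in the average of the arteries (limma, adjusted p = 0.00879) and by 0.46 ± 0.12 in the brachial artery (adjusted p = 0.0374). It kept the average call in all 15 fits that left out 1 pig. The other 8 did not pass, and the list's median change was 0.17. Between arteries, ST6GAL1, a sialyltransferase, was higher in the brachial artery by 0.18, and MGAT2, ST3GAL1 and B4GALT3, further enzymes of glycan building and capping, were lower there by 0.64, 0.39 and 0.24.

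Of lysosomal and lipid-loaded macrophage genes, 13 of 19 were measured, and 2 rose in the average of the arteries, against 2.88% of all probe sets. CTSD, the lysosomal protease cathepsin D, rose by 0.36 ± 0.08 (limma, adjusted p = 0.00759) and, in the brachial artery alone, by 0.41 ± 0.10 (adjusted p = 0.0289). CTSB, cathepsin B, rose by 0.16 ± 0.04 (limma, adjusted p = 0.0287). CTSD kept its average call in all 15 fits that left out 1 pig, while CTSB lost its call in 6 of them. CTSB also lost it in the limma fit on pig means (adjusted p = 0.0502). The list's median change was 0.063. In the artery comparison 5 of the 13 were higher in the brachial artery and 3 lower, near the 31.8% and 22.5% over all probe sets, with APOE, a lipid carrier, higher by 0.99 and ABCA1, a cholesterol exporter, lower by 1.16.

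Galectin ligands and receptors showed no training call, 0 of 12 measured of 21 listed, with a median change of 0.0070. Between arteries 5 were higher in the brachial artery and 1 lower, ITGA5, the fibronectin receptor chain, by 1.05, KDR by 0.21, ITGB1 by 0.17, MUC1 by 0.15 and FN1, fibronectin, by 0.14, and CD47 lower by 0.17. Of the partners of galectins at damaged membranes and in autophagy, 0 of 6 measured passed with training, where BECN1 had 0.14 ± 0.05 (limma, adjusted p = 0.0826) and SQSTM1 0.11 ± 0.04 (adjusted p = 0.116). TFEB, a regulator of lysosomal genes, and BECN1 were higher in the brachial artery by 0.55 and 0.20.

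Secreted glycoproteins and alarmins of inflammation gave 0 of 9 training calls. OLR1, a receptor for oxidised LDL, had -0.81 ± 0.30 (limma, adjusted p = 0.123) and TIMP1, a metalloprotease inhibitor, 0.51 ± 0.20 (adjusted p = 0.143). Between arteries 2 of the 9 were higher in the brachial artery, MMP3 by 0.29 and MMP1 by 0.23. Another 2 were lower there, S100A9 by 1.23 and PTX3 by 0.69. The shares over all probe sets were 31.8% and 22.5%. Group means of MMP3, MMP1 and S100A9 lay below all array medians, and S100A9 read 10.42 on its highest array. The only further galectin measured, LGALS2, had -0.020 ± 0.06 (limma, adjusted p = 0.904).

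**Figure D5:**
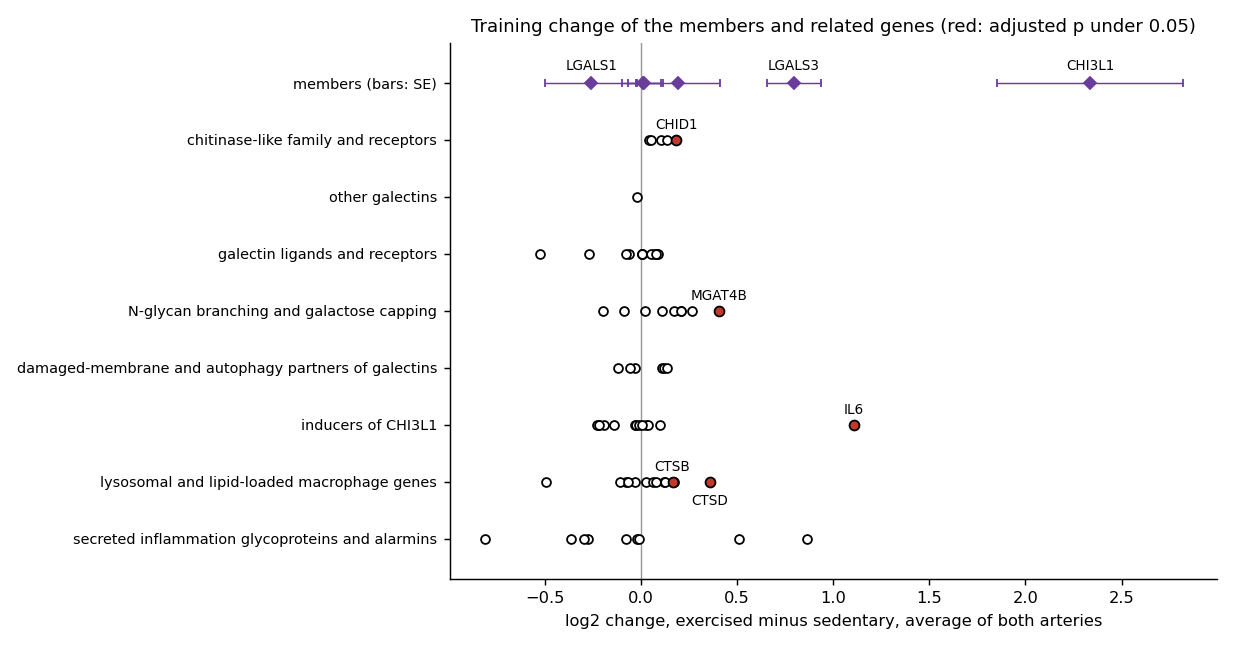
Log2 change, exercised minus sedentary, averaged over both arteries, for the 6 members (top row, bars are SE) and for each measured gene of 8 related lists; red points have an adjusted p under 0.05. CHI3L1 (2.34) and LGALS3 (0.80) lie to the right, and CHID1, MGAT4B, IL6, CTSB and CTSD are the genes in red.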

How the data were processed

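RNA from scraped arterial linings was measured on single-colour porcine oligonucleotide arrays, 29 in all. The authors deposited 1 log2 intensity per probe set and array, and the submitters' processing notes name affy. How probes were summarised, corrected for background and normalized is not given in the sources used here, and no read depth exists, so the number of arrays limits the precision. Probe sets were named by the platform annotation, in which 10069 of 23999 had 1 symbol, 198 several and 13732 none. All 6 members matched a RefSeq gene table (names only).

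Titles and treatment tags set the groups. For the 8 exercised internal mammary arrays they contradict the source field, which says sedentary. Pig identifiers in the labels pair the arteries, and each pig is taken as a separate replicate. After group means were subtracted, same-pig arrays had a median correlation of 0.19, against -0.023 between pigs.

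The limma model (version 3.58.1, run in R 4.3.3) had 4 group means, pig as a random block (consensus correlation 0.255) and moderated tests, after 124 control probe sets were left out. The procedure was tested on simulated data. Correlations used exact permutation within groups (numpy 2.4.6, Python 3.11.15; figures with matplotlib 3.10.9), where the smallest possible p was 0.000198 for 7 pigs and 2.48e-05 for 8. The correlations with day, and those of CHI3L1 with LGALS3, were added after seeing the data.

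The members, the gene lists and the tests were chosen with earlier results of these data known. Named genes were all members and the 6 genes most like CHI3L1 or LGALS3. Genes of the related lists were named when they passed in the average training or artery comparison (at most 6 per list). Where none passed with training, at most the 2 with the smallest p were named. Of the lysosomal list's artery differences only the largest, those of APOE and ABCA1, were named. A list gene was represented by its brightest probe set. IL1B, TNF, STAT3, NFKB1, PECAM1, CDH5, VWF, CD79B, CD3D, CD2, CD3E and ACTA2 were named after their values were seen. Alternatives were no or a fixed pig block, other normalization, filter and prior, array weights, covariates, date periods and leaving out each pig, which kept the consensus correlation. Under the fixed block, artery differences were fitted within pigs. Training differs between pigs, so there its change was fitted without a block, in each artery alone or on pig means of the 14 pigs with both arteries.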

Additional observations from a re-analysis of the deposited data

Results flagged for a closer look

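Of 24 gene and group combinations checked for a sample far from the others, 2 stood out, where chance alone marks about 1 in 20 groups. LGALS9 read 9.89 in the internal mammary artery of exercised pig 15_4, and the nearest other pig of its group read 8.18. LGALS4 read 5.82 in the internal mammary artery of sedentary pig 17_1, and the nearest other pig of its group read 5.37. The cause of either value was not tested.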

How the results depend on the processing

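The average training change of CHI3L1 lay between 1.80 and 2.95, and that of LGALS3 between 0.67 and 0.96, over 13 other settings for each, and between 2.09 and 2.64 and between 0.70 and 0.87 when 1 pig was left out. The fit on pig means, used for training in place of a fixed replicate block, gave 2.40 and 0.87. No replicate block gave 2.35 and 0.81. Neither the fixed block nor its absence changed a call of LGALS3, whose average artery difference was 0.50 and 0.55 (limma, adjusted p = 0.000161 and 0.000872). The artery differences of LGALS8 in sedentary pigs and LGALS4 in exercised pigs lost their call under the fixed replicate block, at 0.30 (adjusted p = 0.0914) and 0.29 (adjusted p = 0.074). In the 8 earliest pigs alone, with fewer samples, the average artery difference of LGALS3 was 0.40 (adjusted p = 0.0715) and 0 members passed in the artery comparison, against 2 in all pigs; leaving out 1 pig gave 2 to 3 members, and 0 of the 4 other galectins passed with training.

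None of the values that changed sign had passed the test, and the cause of each change was not tested. In the 8 earliest pigs CHI3L1 had artery differences of -0.0031 on average and -0.19 in exercised pigs, LGALS8 -0.061 in exercised pigs, and training changes were 0.21 for brachial LGALS1, -0.058 for average, -0.097 for brachial and -0.079 for brachial minus internal mammary LGALS4, -0.044 for average LGALS8 and -0.018 for internal mammary LGALS9. In the 7 latest pigs the artery differences were -0.14 for LGALS1 in exercised pigs, -0.10 for LGALS4 in sedentary pigs, and -0.035 in sedentary pigs and -0.0084 on average for LGALS9, and training changes were -0.37 for LGALS1 and 0.0076 for LGALS8 as brachial minus internal mammary and 0.034 for brachial LGALS8. With the 28S/18S ratio, artery differences in sedentary pigs were -0.087 for LGALS1 and -0.061 for LGALS9. With macrophage markers, brachial minus internal mammary training changes were 0.41 for CHI3L1, -0.033 for LGALS1 and 0.041 for LGALS8, brachial LGALS8 was 0.097 and average LGALS4 -0.028. With smooth muscle markers, artery differences of LGALS1 were -0.071 on average, -0.021 in exercised and -0.12 in sedentary pigs, and training changes were 0.034 for brachial LGALS1 and -0.066 for average and -0.025 for internal mammary LGALS8. The artery difference of LGALS4 in sedentary pigs was -0.042 with array weights and -0.049 after quantile normalization, and its Spearman rho between arteries in sedentary pigs was 0.036 against r = -0.528.

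With 1 pig left out, the ranges that crossed 0 were -0.44 to 0.096 for CHI3L1, -0.16 to 0.40 for LGALS1 and -0.015 to 0.13 for LGALS9 in brachial minus internal mammary training changes, -0.023 to 0.16 for the LGALS4 artery difference in sedentary pigs, -0.010 to 0.037 for LGALS4, -0.028 to 0.061 for LGALS8 and -0.036 to 0.30 for LGALS9 in average training changes, -0.13 to 0.025 for brachial LGALS8, and -0.0014 to 0.11 for LGALS8 and -0.10 to 0.30 for LGALS9 in internal mammary training changes. The artery differences of LGALS1 passed without pig 11_1 (0.46, adjusted p = 0.0253) or pig 14_3 (0.45, adjusted p = 0.0315). Leaving out the dimmest probe sets removed LGALS4, so that setting gave it no value. The average rises of MGAT4B and CTSD lost their call in 2 of 28 settings each, CHID1 in 17, CTSB in 11 and IL6 in 20; these fits were added after seeing the data.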
